A study of Homo sapiens with 9 samples.

Results

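The 40 genes described here carry cells through mitosis and the spindle checkpoint, and were taken as a list of symbols out of the 27730 gene symbols of the count table. Each of the 40 was found on a row of its own and passed the filter on low counts in all comparisons. The 9 RNA libraries come from the human embryonic stem cell line HUES9, kept on mouse feeder cells and used at passages 44 to 46, and fall into 3 groups of 3 replicates. The first group was differentiated as embryoid bodies, later plated on Matrigel, to day 13 with 10 µM AA147, a small molecule labelled as activating ATF6, which turns on chaperone genes when misfolded proteins build up in the endoplasmic reticulum. The second was differentiated to day 13 with 10 µM RP22, which the labels call an inactive analog of AA147, and the third was collected at day 1 with no agent. All groups come from the same single line, the labels call the replicates independent experiments, and libraries with solvent alone were not analysed here.

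During mitosis the kinase CDK1, bound to cyclins, drives chromosome condensation and spindle formation, while kinetochores link chromosomes to spindle microtubules. The spindle checkpoint holds the anaphase-promoting complex, a ubiquitin ligase, inactive until every kinetochore is attached. Its release lets separase cut cohesin and cyclin B be destroyed, after which the central spindle and a contractile ring divide the cell. Most of these genes are transcribed only in late S phase, G2 and mitosis, so their mRNA is abundant in cultures that divide fast, as pluripotent stem cells do. In many of their promoters a short element called the CHR, bound by the DREAM and MYB-MuvB complexes, sits close to boxes bound by NF-Y.

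Promoter sequence from RefSeq (GRCh38.p14, 300 bases from 250 before to 50 after the start) was at hand for 33 of the 40 genes in 37 windows, since a gene can have several starts. Windows were searched on both strands for the CHR form TTTGAA, for the related form TTTAAA, for the form written TTCGAA, and for the NF-Y box, CCAAT. A CHR form was present in 33 of 37 windows (89.2%) and in 25.1% of all 35116 RefSeq windows, and CCAAT in 30 of 37 windows (81.1%) and in 34.6% of all windows. The 2 kinds of box occurred together in 26 of 37 windows (70.3%), against 9.70% of all windows. The forms can overlap each other, and a match is a description of letters, not evidence of binding. The 140 bases just before the start are printed for 7 genes that the results turn on, 5′ to 3′ on the gene's strand, with every CHR form and every NF-Y box, on either strand, in capitals.
CCNB1 (chr5:69167010-69167149, plus strand): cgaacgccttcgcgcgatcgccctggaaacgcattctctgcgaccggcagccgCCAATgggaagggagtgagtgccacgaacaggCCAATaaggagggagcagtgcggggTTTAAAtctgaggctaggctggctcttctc
CCNB2 (chr15:59105006-59105145, plus strand): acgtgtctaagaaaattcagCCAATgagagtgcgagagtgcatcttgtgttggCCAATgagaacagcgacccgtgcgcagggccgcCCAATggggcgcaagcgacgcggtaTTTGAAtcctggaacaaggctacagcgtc
BUB1 (chr2:110678064-110678203, minus strand): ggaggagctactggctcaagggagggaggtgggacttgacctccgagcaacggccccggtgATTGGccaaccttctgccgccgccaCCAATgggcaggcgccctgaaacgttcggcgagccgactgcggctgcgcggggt
TOP2A (chr17:40417897-40418036, minus strand): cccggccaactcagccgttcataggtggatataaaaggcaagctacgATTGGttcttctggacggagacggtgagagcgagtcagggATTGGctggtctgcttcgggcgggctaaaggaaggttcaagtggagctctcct
MKI67 (chr10:128126424-128126563, minus strand): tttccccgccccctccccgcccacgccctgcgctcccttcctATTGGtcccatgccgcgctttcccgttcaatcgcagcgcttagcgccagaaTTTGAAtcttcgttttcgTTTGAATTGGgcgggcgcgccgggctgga
PRC1 (chr15:90994536-90994675, minus strand): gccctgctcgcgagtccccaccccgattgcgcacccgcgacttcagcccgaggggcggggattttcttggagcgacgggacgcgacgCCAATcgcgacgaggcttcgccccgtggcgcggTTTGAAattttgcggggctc
ANLN (chr7:36389722-36389861, plus strand): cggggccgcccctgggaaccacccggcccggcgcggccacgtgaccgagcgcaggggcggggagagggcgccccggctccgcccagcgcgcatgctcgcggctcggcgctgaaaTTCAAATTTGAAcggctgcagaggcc
CCNB1 and CCNB2 are shown as members that were lower at each step, BUB1 for the deepest fall, TOP2A for a level that did not differ detectably between RP22 and day 1, MKI67 and PRC1 as the members higher with RP22 than at day 1, and ANLN as a member that was not called between the compounds. In the CCNB2 stretch 3 CCAAT boxes begin at positions -120, -87 and -54 and a TTTGAA begins at -29. CCNB1 has CCAAT boxes at -87 and -55 and a TTTAAA at -30. The CHR form of BUB1, TTCGAA, begins at position 2 after the start and so lies outside the printed stretch, and those of TOP2A begin at -194 and -151. MKI67 and PRC1 hold CHR forms and CCAAT like the cyclins, and ANLN holds TTTGAA on both strands in adjacent positions (-26 and -20), with no CCAAT.

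**Figure D1:**
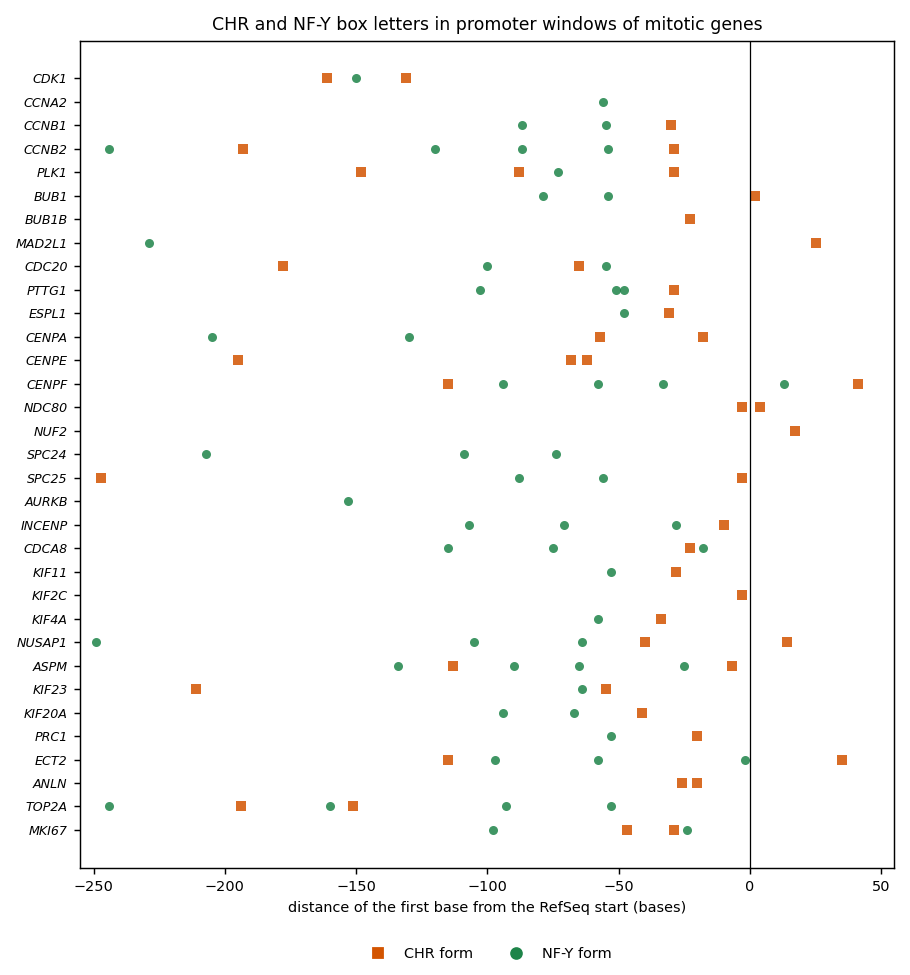
Positions of CHR forms (squares) and NF-Y boxes (circles) in the first RefSeq promoter window of each of the 33 genes with a window, as the distance in bases of the leftmost base from the start on the gene's strand. Across all 37 windows, 26 hold a CHR form that begins between 80 bases before and 20 after the start (70.3%, against 8.62% of all RefSeq windows).

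The libraries held 9223027 to 10118258 reads. Levels in CPM are reads scaled to library size, with TMM factors over the 9 libraries. Over all genes replicate 1 was the outlying library of each group, by chi-square over degrees of freedom. With RP22 the values were 28.0 and 26.9 with replicates 2 and 3, and 2.39 between those. With AA147 they were 9.98 and 10.5, and 5.08. At day 1 they were 13.8 and 8.47, and 3.66. The summed CPM of the 40 genes in RP22 replicate 1, 3943, lay between the 3959 and 3884 of replicates 2 and 3. AA147 replicate 1 had the highest CPM of its group for 38 of the 40 genes, and a sum of 2019 CPM, against 1509 and 1596 in replicates 2 and 3. At day 1 the 10 pluripotency markers summed to 7702 to 8563 CPM, above every day 13 library, with none at 0.

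The first comparison asks how AA147 changed the day 13 cultures relative to its analog at the same dose and day, the single pair of compounds in the series. Almost all mitotic genes were lower with AA147 than with RP22, most of them by 2- to 4-fold. Every log2 fold change was below 0. By edgeR at an adjusted p under 0.05 (Benjamini-Hochberg, 3 libraries a group) 38 of the 40 genes fell, where 32.2% of all 14293 genes tested fell, 29.8% rose and 62.0% did either. The groups did not overlap for the same number, 38, against 32.6% of all genes lower in this way. The median log2 fold change of the 40 was -1.42, against -0.03 over all genes tested, and 36 fell at least 2-fold, as 18.1% of all genes did. With TMM scaling no member fell 4-fold, a size reached by 10.1% of all genes. In bulk samples, fewer dividing cells and less mRNA per dividing cell cannot be told apart.

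**Figure D2:**
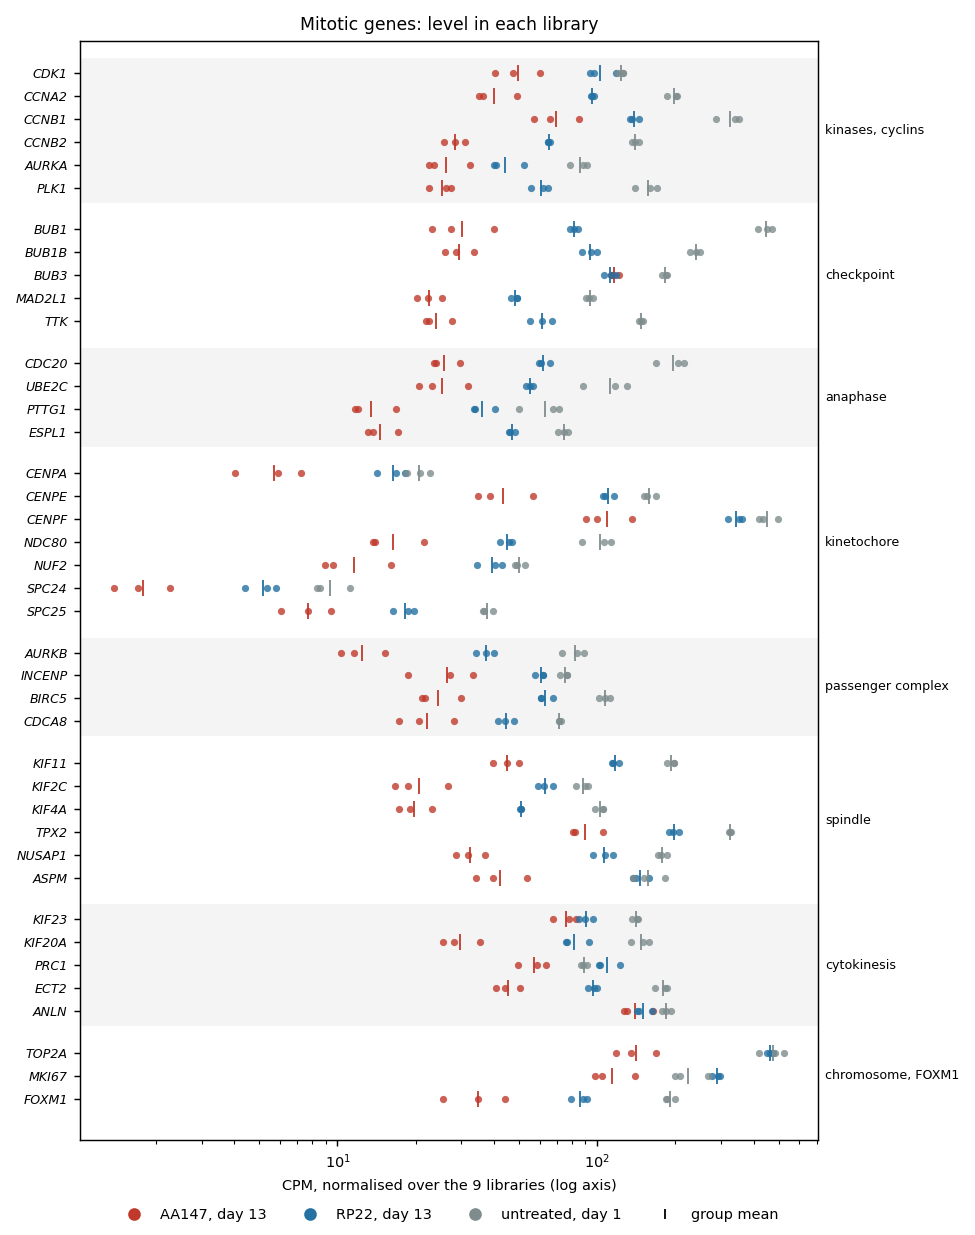
CPM of each of the 40 genes (log axis) in the 3 libraries with AA147, the 3 with RP22 and the 3 at day 1, as points, with a bar at each group mean and genes grouped by role. The AA147 points lie below the RP22 points for all genes but BUB3 and ANLN, and below the day 1 points for all 40.

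All 6 mitotic kinases and cyclins fell with AA147, by log2 fold changes of -1.34 to -0.84. CCNB1, cyclin B1, the partner of CDK1 at mitotic entry, had 85.03, 65.9 and 57.3 CPM with AA147, against 145, 134 and 136 CPM with RP22. The AA147 libraries lay below every RP22 library, with a log2 fold change of -1.07 ± 0.14 (SE) and an edgeR adjusted p of 0.00052. Its relative CCNB2 had 31.1, 25.8 and 28.3 CPM with AA147, against 66.0, 64.5 and 64.6 CPM with RP22, again without overlap (-1.27 ± 0.091). PLK1, the polo-like kinase that acts from centrosome maturation to cytokinesis, had 27.2, 22.5 and 26.1 CPM with AA147, against 61.9, 64.7 and 55.6 CPM with RP22 (-1.34 ± 0.11). CDK1 itself (-1.14 ± 0.16) and CCNA2, the cyclin of S phase and G2 (-1.33 ± 0.13), fell by similar amounts. AURKA, the kinase of the spindle poles, had the smallest change of the 6 at -0.84 ± 0.17, with 26.1 ± 5.32 CPM with AA147 and 44.3 ± 6.94 CPM with RP22 (SD, n = 3 each).

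Of the 5 spindle checkpoint genes 4 fell. BUB1 and TTK are kinases that start checkpoint signalling at the kinetochore, and BUB1B, MAD2L1 and BUB3 join CDC20 in the complex that holds the anaphase-promoting complex back. BUB1B had 33.7, 26.1 and 28.6 CPM with AA147, against 87.0, 100.1 and 94.3 CPM with RP22, with no overlap and a log2 fold change of -1.75 ± 0.11 (edgeR adjusted p 1.7e-05). BUB1 (-1.50 ± 0.20), TTK (-1.43 ± 0.12) and MAD2L1 (-1.18 ± 0.10) were lower as well. BUB3 was not called, with 113, 121 and 115 CPM with AA147, against 106, 112 and 118 CPM with RP22. Its groups overlapped, its log2 fold change was -0.03 ± 0.069 with a 95% interval of -0.19 to 0.13 (edgeR adjusted p 0.72), and it became -0.49 (edgeR adjusted p 0.0009) when libraries were scaled by their totals alone and 0.05 with all 9 libraries in one fit.

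The 4 genes of the metaphase to anaphase switch all fell. CDC20, the activator that the checkpoint blocks, had 29.7, 23.6 and 24.1 CPM with AA147, against 59.5, 65.8 and 60.6 CPM with RP22 (-1.34 ± 0.11). UBE2C, the ubiquitin-conjugating enzyme that serves the anaphase-promoting complex, had a log2 fold change of -1.20 ± 0.16. PTTG1 encodes securin, the inhibitor of separase, and ESPL1 encodes separase, and these had -1.49 ± 0.16 and -1.76 ± 0.12. ESPL1 was 17.2, 13.6 and 13.1 CPM with AA147, against 48.4, 45.9 and 46.2 CPM with RP22, and its AA147 libraries lay far below the RP22 range.

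The kinetochore genes had the lowest median of the role groups, -1.60, and all 7 fell. NUF2, SPC24, SPC25 and NDC80 encode the 4 subunits of the NDC80 complex, the microtubule-binding rod of the outer kinetochore, and their log2 fold changes were -1.84 ± 0.23, -1.61 ± 0.28, -1.32 ± 0.19 and -1.53 ± 0.18. NUF2 had 16.1, 9.65 and 8.94 CPM with AA147, against 34.5, 43.0 and 40.5 CPM with RP22, with its highest AA147 value in replicate 1. SPC24 had the lowest levels of the 40 and rests on 10, 13 and 18 reads in the AA147 libraries. CENPF, a large kinetochore and nuclear matrix protein of G2 and mitosis, had 136, 90.3 and 100.2 CPM with AA147, against 318, 359.5 and 352 CPM with RP22 (-1.73 ± 0.16). CENPA, the histone H3 variant that marks centromeres (-1.59 ± 0.23), and CENPE, the kinesin that carries chromosomes to the metaphase plate (-1.42 ± 0.18), were lower too, with no overlap.

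The chromosomal passenger complex corrects faulty attachments and guides cytokinesis. Its kinase AURKB had 15.2, 10.3 and 11.6 CPM with AA147, against 34.2, 37.3 and 40.02 CPM with RP22 (-1.66 ± 0.16), and its other subunits BIRC5 (survivin, -1.45 ± 0.14), INCENP (the scaffold, -1.27 ± 0.19) and CDCA8 (borealin, -1.09 ± 0.18) fell as well. All 6 spindle genes fell. ASPM, which focuses microtubules at spindle poles, had 53.5, 34.2 and 39.5 CPM with AA147, against 138, 142 and 158 CPM with RP22, and its log2 fold change of -1.86 ± 0.17 was the lowest of the 40. NUSAP1, a microtubule bundling protein (-1.79 ± 0.12), and KIF2C, a kinesin that shortens microtubules (-1.68 ± 0.17), followed. KIF11, the motor that pushes the poles apart (-1.46 ± 0.10), the chromokinesin KIF4A (-1.44 ± 0.12) and TPX2, the activator of AURKA (-1.22 ± 0.12), fell somewhat less.

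Of the 5 cytokinesis genes 4 fell, with a median of -1.01. KIF20A, a kinesin of the central spindle (-1.54 ± 0.14), ECT2, the exchange factor that activates RhoA at the division plane (-1.17 ± 0.10), and PRC1, which bundles antiparallel microtubules (-1.01 ± 0.12), fell without overlap. KIF23, the kinesin of the centralspindlin complex, had 82.8, 67.5 and 77.6 CPM with AA147, against 96.3, 90.0 and 85.2 CPM with RP22. Its highest AA147 value lay just under its lowest RP22 value, with a log2 fold change of -0.33 ± 0.10 (edgeR adjusted p 0.018), and the call ended without AA147 replicate 2 (edgeR adjusted p 0.059) or 3 (0.053). ANLN, anillin, the scaffold of the contractile ring, had 164, 126 and 129.9 CPM with AA147, against 162, 145 and 142 CPM with RP22 and was not called (-0.17 ± 0.12, 95% interval -0.44 to 0.10, edgeR adjusted p 0.23). Its AA147 replicate 1 lay above every RP22 library; without it ANLN was called lower (-0.31, edgeR adjusted p 0.018), as it was with library totals (-0.63, 0.0019).

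The last 3 members fell as well. TOP2A, the topoisomerase that untangles sister chromatids, had 168, 118 and 135 CPM with AA147, against 462, 473 and 449 CPM with RP22 (-1.79 ± 0.13, edgeR adjusted p 3e-05). MKI67, which encodes the proliferation marker Ki-67, had 139.7, 98.3 and 104.5 CPM with AA147, against 293, 277 and 296 CPM with RP22 (-1.42 ± 0.14). FOXM1, a transcription factor that activates many genes of this list, had 44.1, 25.5 and 34.9 CPM with AA147, against 87.9, 91.2 and 79.3 CPM with RP22 (-1.38 ± 0.19). In each case the groups were apart, and the 38 called genes had edgeR adjusted p of 1.7e-05 (BUB1B and others) to 0.018 (KIF23).

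**Figure D3:**
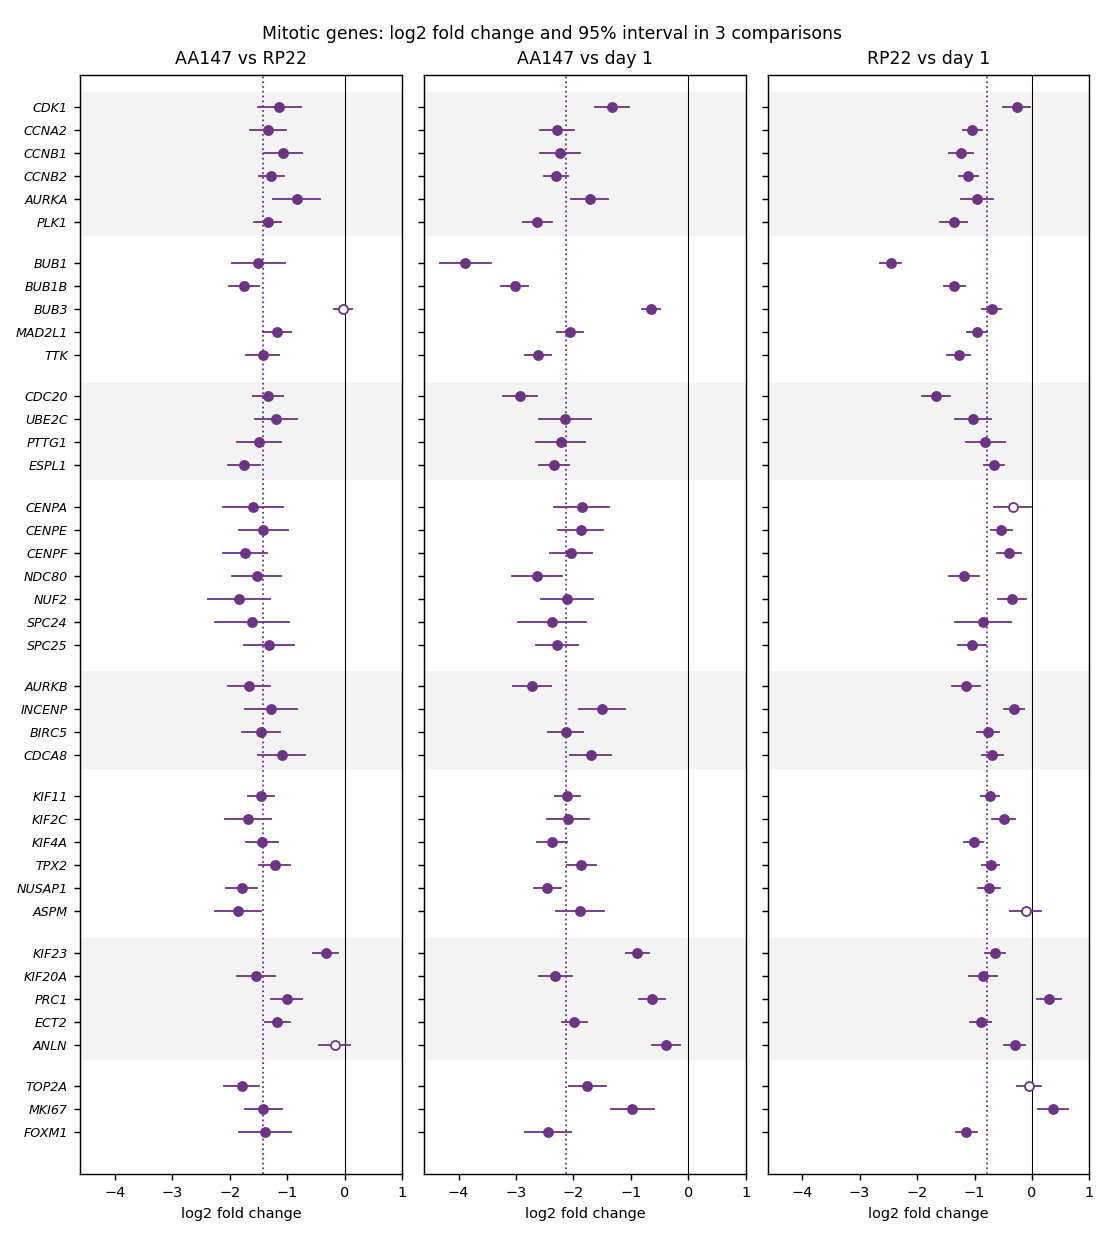
Log2 fold change of each gene (point) with its 95% interval (line) for AA147 vs RP22, AA147 vs day 1 and RP22 vs day 1. Filled points passed the edgeR test at an adjusted p under 0.05, open points did not, and the dotted line marks the median of the 40 genes (-1.42, -2.12 and -0.79).

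Scaling bears on these sizes. With library totals alone the median over all genes moved to -0.49 and that of the 40 genes to -1.87. All 40 were called lower, where 8527 of all 14293 genes tested were lower and 1897 higher. Of all calls 18.2% were upward, against 48.1% with TMM. Relative to the median of all genes the 40 genes thus stood at about the same distance.

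The second comparison follows differentiation with the inactive analog, day 13 against day 1. Most mitotic genes were lower with RP22, but by less than 2-fold for most of them, and the members diverged more. Of the 40 genes 35 fell and 2 rose by the same edgeR test, where 35.2% of all 14558 genes tested fell, 36.6% rose and 71.9% did either. The groups lay apart for 36 members lower and 2 higher, against 38.0% and 38.9% of all genes. The median log2 fold change was -0.79, against 0.02 over all genes, and 14 members fell at least 2-fold, as 12.5% of all genes did.

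BUB1 stood lowest and was the 1 member that fell 4-fold, as 2.73% of all genes did. It had 84.1, 81.3 and 78.2 CPM with RP22, against 472, 415 and 449.5 CPM at day 1, a log2 fold change of -2.46 ± 0.081 (edgeR adjusted p 3.1e-07), so the RP22 mean was 18.2% of the day 1 mean. CDC20 came next with 59.5, 65.8 and 60.6 CPM with RP22, against 169, 215 and 205 CPM at day 1 (-1.67 ± 0.11), followed by PLK1 (-1.37 ± 0.10), BUB1B (-1.35 ± 0.081), TTK (-1.27 ± 0.088) and CCNB1 (-1.24 ± 0.093). Kinases, cyclins and checkpoint genes thus had the lowest medians of the role groups, -1.07 and -1.27, and all 11 of them fell. The CDK1 call was weak. Its log2 fold change of -0.27 ± 0.10 had an edgeR adjusted p of 0.038, and the call ended without RP22 replicate 2 (edgeR adjusted p 0.14) or 3 (0.13), without day 1 replicate 2 (0.10) or 3 (0.095), and with library totals (0.10).

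Kinetochore genes had a median of -0.54, closer to 0 than that of the kinases, and 6 of 7 fell. Within the NDC80 complex, NDC80 (-1.18 ± 0.11), SPC25 (-1.05 ± 0.11) and SPC24 (-0.85 ± 0.21) had lower fold changes than NUF2 (-0.35 ± 0.10), whose call ended with library totals (edgeR adjusted p 0.089) and without day 1 replicate 2 (0.06). CENPA had 18.2, 16.7 and 14.2 CPM with RP22, against 20.7, 18.6 and 22.7 CPM at day 1, groups that lay apart by a small gap, and was not called (-0.34 ± 0.14, edgeR adjusted p 0.056; 0.027 without RP22 replicate 1). All 4 passenger genes fell, AURKB (-1.14 ± 0.10) by the most and INCENP (-0.31 ± 0.076) by the least, and the INCENP call ended with library totals (edgeR adjusted p 0.057). All 4 genes of the anaphase switch fell by -1.67 to -0.67. BUB3 fell too, with 106, 112 and 118 CPM with RP22, against 178, 184 and 186 CPM at day 1 (-0.70 ± 0.072).

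TOP2A and ASPM were not called between RP22 and day 1. TOP2A had 462, 473 and 449 CPM with RP22, against 526, 420.1 and 482 CPM at day 1, overlapping groups with a log2 fold change of -0.05 ± 0.092 (95% interval -0.26 to 0.17, edgeR adjusted p 0.66). ASPM had 138, 142 and 158 CPM with RP22, against 183, 137 and 152 CPM at day 1, with -0.11 ± 0.12 (95% interval -0.38 to 0.16, edgeR adjusted p 0.41).

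MKI67 and PRC1 were higher with RP22 than at day 1. MKI67 had 293, 277 and 296 CPM with RP22, against 266, 198 and 209 CPM at day 1, and PRC1 had 123, 102 and 102 CPM with RP22, against 88.5, 91.5 and 86.6 CPM at day 1. Their groups did not overlap, with log2 fold changes of 0.36 ± 0.11 and 0.29 ± 0.092 (edgeR adjusted p 0.02 for each). The MKI67 call ended without RP22 replicate 3 (edgeR adjusted p 0.059) or day 1 replicate 2 (0.057) or 3 (0.094), and that of PRC1 without day 1 replicate 3 (0.084).

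The third comparison sets AA147 at day 13 against day 1 and shares its day 1 libraries with the second. All 40 genes fell, where 40.4% of all 13761 genes tested fell, 38.7% rose and 79.1% did either. For all 40 the groups lay apart, against 42.0% of all genes lower and 40.3% higher in this way. Their median log2 fold change was -2.12, against -0.04 over all genes. Falls of at least 2-fold were found in 35 of the 40 and of at least 4-fold in 25, against 21.5% and 9.63% of all genes. BUB1 had 40.1, 23.0 and 27.4 CPM with AA147 and 84.1, 81.3 and 78.2 CPM with RP22, against 472, 415 and 449.5 CPM at day 1, so the AA147 mean was 6.78% of the day 1 mean (log2 fold change -3.88 ± 0.19, edgeR adjusted p 4.2e-07). BUB1B (-3.02 ± 0.11), CDC20 (-2.93 ± 0.13), AURKB (-2.73 ± 0.15), NDC80 (-2.64 ± 0.19) and PLK1 (-2.63 ± 0.11) followed. The smallest falls were those of ANLN (-0.39 ± 0.11, edgeR adjusted p 0.0071), PRC1 (-0.64 ± 0.10), BUB3 (-0.65 ± 0.067), KIF23 (-0.89 ± 0.091) and MKI67 (-0.97 ± 0.16). Scaling by totals moved the median of all genes to -0.48 and that of the 40 to -2.56, with 34.3% of all calls upward, against 48.9% with TMM.

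Set side by side, without a test since the comparisons share libraries, the 2 differences had different proportions among members. With TMM, for 32 of the 40 the log2 difference between AA147 and RP22 was larger in size than that between RP22 and day 1. BUB1, CDC20, CCNB1, PLK1, AURKA, BUB3, KIF23 and ANLN were the other 8. Library totals moved the medians of the 40 from -1.42 and -0.79 to -1.87 and -0.69, so this count rests on TMM. The same count over all genes was not taken. With TMM the sizes of the 2 values differed by less than their combined SE for 4 of the 8. These were PLK1 (-1.34 ± 0.11 and -1.37 ± 0.10), AURKA (-0.84 ± 0.17 and -0.96 ± 0.12), CCNB1 (-1.07 ± 0.14 and -1.24 ± 0.093) and ANLN (-0.17 ± 0.12 and -0.30 ± 0.079). Among the 32 the same held for UBE2C (-1.20 ± 0.16 and -1.03 ± 0.14). The combined SE takes no account of the RP22 libraries that both values share and is too small here, so more genes may belong with these. TOP2A stood at 29.5% of its day 1 mean CPM with AA147 and 97.0% with RP22, and ASPM at 27.0% with AA147 and 92.7% with RP22. BUB1 stood at 6.78% with AA147 and 18.2% with RP22, and BUB3 was at 63.7% with AA147 and 61.5% with RP22.

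Per length, on the authors' RPKM scale, the order of the members differed between groups. On this scale (pseudocount 0.1) the median log2 fold change over all genes was -0.44 for AA147 with RP22. It was -0.47 for AA147 with day 1 and 0.07 for RP22 with day 1. Differences in RPKM level between groups include that shift. With AA147 the median over the 40 genes was 8.17 RPKM. BUB3 at 33.6 ± 0.791 RPKM and ANLN at 28.1 ± 4.87 RPKM (SD, n = 3 each) led the order, and ANLN did not differ beyond its spread from CCNB1 at 25.6 ± 5.84 RPKM. With RP22 the median was 27.5 RPKM, and TOP2A ranked highest at 92.9 ± 3.81 RPKM, above CCNB1 at 73.7 ± 0.827 RPKM. At day 1 the median was 48.6 RPKM and the highest levels were those of CCNB1 at 162 ± 17.1 RPKM, BUB1 at 135 ± 8.69 RPKM and CDC20 at 127 ± 15.9 RPKM, of which BUB1 and CDC20 lay within their spread of each other. BUB1 ranked 27 with AA147 and 25 with RP22, against 2 at day 1. ESPL1 and SPC24 held the last 2 ranks in each group.

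KIF4A and PTTG1 have near-identical copies among which reads may be split. KIF4B, an intronless copy of KIF4A, had 15.2 to 25.2% of the reads of KIF4A in the AA147 libraries, 20.8 to 21.0% with RP22 and 18.4 to 20.1% at day 1. PTTG2 had 11.8 to 21.1% of the reads of PTTG1 with AA147, 15.2 to 17.1% with RP22 and 15.7 to 18.2% at day 1. Each copy fell with AA147 against RP22 much as its parent did, KIF4B by a log2 fold change of -1.44 ± 0.25 and PTTG2 by -1.41 ± 0.34, so the values of KIF4A and PTTG1 are uncertain as to the copy.

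Other genes of cell division were read from lists beside the 40. Between AA147 and RP22, 32.2% of all genes tested fell and 29.8% rose. In the comparison of AA147 with RP22, 26 of 27 other spindle and cytokinesis genes fell and 1 rose, with a median of -1.25. KIF15, a second spindle motor (-2.76 ± 0.18), and DLGAP5, a spindle assembly factor (-1.86 ± 0.18), had the lowest values, and MAPRE1, the microtubule end-binding protein EB1, was higher (0.46 ± 0.083), a call lost with library totals (0.01, edgeR adjusted p 0.95). Of 36 other kinetochore and checkpoint genes 29 fell and the other 7 did not pass (median -0.80). Among the genes that fell were CENPH of the inner kinetochore (-1.82 ± 0.15) and KNTC1 of the RZZ complex (-1.46 ± 0.12). Condensin and cohesin genes counted 14 lower and 1 higher of 19. The condensin I subunits NCAPH (-1.79 ± 0.12) and NCAPG (-1.39 ± 0.16) were lowest, and the cohesin subunit STAG1 was higher with TMM (0.32 ± 0.10) and -0.14 with library totals.

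Of 17 centriole and centrosome genes 14 fell and the other 3 did not pass (median -0.56), with the kinases NEK2 (-1.61 ± 0.16) and PLK4 (-1.39 ± 0.11) lowest. Of 17 tested G2 to M regulators 15 fell and 1 rose (median -0.76), among them the phosphatase CDC25C (-1.72 ± 0.16) and CDKN3 (-1.56 ± 0.24), while ARPP19, an inhibitor of the phosphatase PP2A in mitosis, was higher (0.41 ± 0.061) and -0.04 with library totals. The 17 genes of the anaphase-promoting complex and its regulators had no common direction, with 4 higher and 4 lower and a median of 0.08. With library totals the median was -0.38, with 1 higher and 10 lower. In that setting 8527 of all 14293 genes tested were lower and 1897 higher, so the share lower was near that of all genes. With TMM both shares were below those of all genes tested, 29.8% higher and 32.2% lower. FZR1, the activator CDH1 that keeps the complex active in G1, was higher (1.11 ± 0.074, edgeR adjusted p 1.7e-05; 0.66 with library totals), and its inhibitor FBXO5, EMI1, was lower (-1.18 ± 0.085). CDC16, a core subunit, was higher with TMM (0.36 ± 0.079) and -0.10 with library totals, and ANAPC7 was lower (-0.36 ± 0.081). DNA replication genes, which act in the preceding S phase, had 33 of 34 lower (median -1.12), with ORC1 (-1.94 ± 0.23) and MCM2 (-1.86 ± 0.18) lowest.

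**Figure D4:**
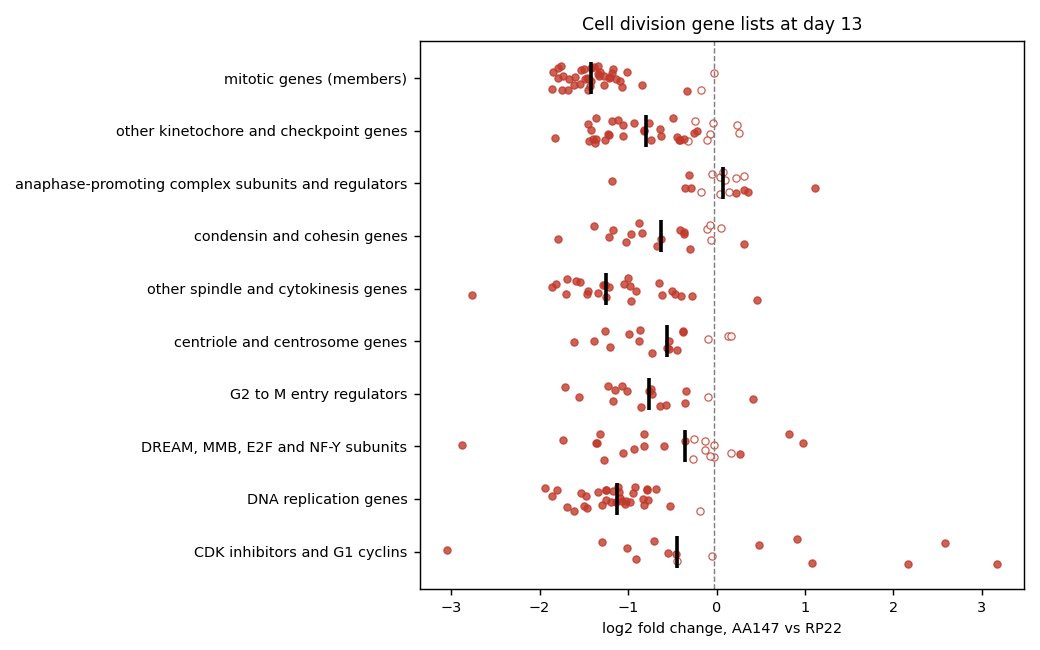
Log2 fold change of AA147 vs RP22 for each tested gene of the 40 mitotic genes and of 9 other cell division lists, with filled points for genes called at an edgeR adjusted p under 0.05, a black bar at each list's median and a dashed line at the median of all genes tested (-0.03). The mitotic genes centre at -1.42, the other spindle and cytokinesis genes at -1.25 and the replication genes at -1.12. Those of the anaphase-promoting complex and its regulators lie around 0.

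With RP22 against day 1, the same lists had 22 of 27 other spindle and cytokinesis genes lower and 3 higher, 30 of 36 kinetochore and checkpoint genes lower and 1 higher, 16 of 19 condensin and cohesin genes lower and 1 higher, and 32 of 34 replication genes lower and 1 higher. Over all genes 35.2% were lower and 36.6% higher in that comparison. With AA147 against day 1, where 40.4% of all genes were lower and 38.7% higher, 24 of the 27 spindle and cytokinesis genes were lower, 31 of the 36 kinetochore and checkpoint genes were lower and 1 higher, 16 of the 19 condensin and cohesin genes were lower and 2 higher, and all 34 replication genes were lower. Of 17 centrosome genes 14 were lower and 2 higher with AA147 against day 1, and 11 were lower and 3 higher with RP22 against day 1. Of 18 tested G2 to M regulators 15 were lower with AA147, and 15 were lower and 1 higher with RP22. Of 17 genes of the anaphase-promoting complex and its regulators, 8 were lower and 3 higher with AA147, a share lower near that of all genes. With RP22, 11 were lower and 1 higher.

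Markers of cell types moved with the same groups. Between AA147 and RP22, 32.2% of all genes tested were lower and 29.8% higher. Summed over 10 genes each, smooth muscle markers reached 6959 to 7902 CPM with AA147 and 1247 to 1481 CPM with RP22. Of these, 8 of 10 were higher with AA147. Pluripotency markers summed to 240.5 to 305 CPM with AA147 and 603 to 940.1 CPM with RP22. Of 9 tested, 8 were lower and 1 higher, and NANOG was at 0 with AA147. The 12 mesenchyme and matrix markers summed to 74420 to 83150 CPM with AA147 and 13990 to 33160 CPM with RP22, where the highest was RP22 replicate 1, and 7 of 12 were higher. Neuron markers summed to 529.5 to 558 CPM with AA147 and 1133 to 1415 CPM with RP22. Of the 10, 8 were lower and 1 higher, with a median log2 fold change of -6.445, a fall larger than that of the sums. NEUROD1 was at 0 with AA147, as it was at day 1. Endothelial markers summed to 7.86 to 25.7 CPM with AA147 and 93.3 to 192 CPM with RP22, with 7 of 8 tested lower. PECAM1 and EMCN were at 0 with AA147 and also at day 1. Neural progenitor markers summed to 699 to 916 CPM with AA147 and 779 to 1217 CPM with RP22, which overlapped. Of 8 tested, 7 were lower, with a median log2 fold change of -7.2, which the sums do not show. HES5 and FABP7 were at 0 with AA147. The part of cell composition in the levels of the mitotic genes was not tested.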

How the data were processed

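For each library the authors deposited expected counts by gene symbol, in which 0.05 stands in for 0 and was read as 0, and RPKM (reads per kilobase, scaled to depth). The submitters' processing notes name GRCh37.p13. Aligner and counter: not given in the sources used here. Fractional values, 0.914% of all values and none of a member, were rounded, and 42 symbols on 2 rows were summed. The counts of the members lay between 10 and 5659 reads per library, so counting error is largest for SPC24.

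Each comparison was fitted on its 6 libraries in R 4.3.3 with edgeR 4.0.16 (filterByExpr, TMM, robust quasi-likelihood F test, group as the only term), over all genes, with Benjamini-Hochberg adjustment and a threshold of 0.05. The SE is the size of the log2 fold change over the square root of F, and 95% intervals use the t quantile of the fit. CPM used TMM over all 9 libraries. The procedure was tested on simulated data. Alternatives were DESeq2 1.42.0, limma 3.58.1 (voom, or log2 of RPKM with a pseudocount of 0.1 or 1), other scaling, no count filter, all 9 libraries, a replicate block, a 1.2-fold minimum (glmTreat), leaving out each library and, added later, leaving out replicate 1 of both groups.

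The members, their role groups and the other lists were chosen with earlier results of these data known. All 40 members may be named, and from each other list up to 2 called genes with the largest rise and 2 with the largest fall between AA147 and RP22 whose groups did not overlap, plus CDKN1A, CDKN1B, CDKN1C and the near copies KIF4B and PTTG2. Promoter windows are from RefSeq (GRCh38.p14).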

Additional observations from a re-analysis of the deposited data

Results flagged for a closer look

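MKI67 and PRC1 moved in opposite directions against day 1 under the 2 compounds. They were picked by a rule that required a call in each of the 3 comparisons, with opposite signs against day 1. The p-values below for AA147 with RP22 are those of the first comparison and, being part of the rule, are no separate test. MKI67 was lower with AA147 than at day 1 (-0.97 ± 0.16) and higher with RP22 than at day 1 (0.36 ± 0.11), and the difference between AA147 and RP22 was -1.42 (edgeR adjusted p 0.00012). PRC1 was lower with AA147 (-0.64 ± 0.10) and higher with RP22 (0.29 ± 0.092), with a difference of -1.01 (edgeR adjusted p 0.00021). All 3 AA147 libraries lay below and all 3 RP22 libraries above the 3 day 1 libraries for both genes, and the rises with RP22 were lost in several reanalyses given with them.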

How the results depend on the processing

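The median log2 fold change of the 40 genes kept its sign in every alternative. For AA147 with RP22 it was -1.87 with library totals, -1.87 and -1.72 with limma on log2 RPKM with pseudocounts of 0.1 and 1, and -1.57 without replicate 1 of both groups. For RP22 with day 1 the first 3 settings gave -0.69, -0.68 and -0.65. For AA147 with day 1 they gave -2.56, -2.54 and -2.38, and leaving out replicate 1 of both groups gave -2.35. Leaving out each library gave medians of -1.56 to -1.30, -0.82 to -0.74 and -2.32 to -2.02 in the 3 comparisons, with 37 to 39, 33 to 36 and 40 members lower, and 0 to 2 higher with RP22 against day 1. No member was called higher there against a 1.2-fold minimum (0, with 31 lower). Signs turned for genes near 0. BUB3 in AA147 with RP22 was 0.050 with all 9 libraries and -0.051 to 0.025 when libraries were left out. In RP22 with day 1, TOP2A was 0.052 with library totals, 0.059 and 0.058 in the RPKM fits, 0.024 without replicate 1 of both groups and -0.119 to 0.022 when libraries were left out (0.022 without day 1 replicate 1). ASPM was 0.048 without replicate 1 of both groups and -0.191 to 0.005 when libraries were left out (0.005 without day 1 replicate 1). The cause was not tested, beyond the shift of all genes by scaling. Of single-gene results, 1987 kept direction and side of the threshold, 34 lost and 10 gained a call and 9 changed sign.

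Replicate numbers were not shown to pair libraries. Correlations of deviations from group means between same-numbered AA147 and RP22 libraries were 0.191, 0.153 and 0.063, and -0.055 to 0.058 with day 1. AA147 replicate 1 had -0.197 and -0.106 with RP22 replicates 2 and 3. AA147 replicate 2 had -0.145 and 0.078 with RP22 replicates 1 and 3. Those 2 libraries thus correlated best with their own number, while AA147 replicate 3 correlated best with RP22 replicate 2 (0.109). With a replicate block the members lower were 38, 34 and 40 in the 3 comparisons and 2 were higher with RP22 against day 1, and the CDK1 call there ended (edgeR adjusted p 0.052).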

Other observations

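Of 15 CDK inhibitors and G1 cyclins or kinases, 6 rose and 7 fell with AA147 against RP22, where 29.8% of all genes rose and 32.2% fell. With library totals 3 rose and 8 fell, where 1897 of all 14293 genes tested rose and 8527 fell. The share lower was then no larger than that of all genes. The 6 that rose with TMM included G1 cyclins and a G1 kinase beside inhibitors. CDKN2B, the inhibitor p15 of CDK4 and CDK6, had 566, 664 and 559.7 CPM with AA147 and 55.6, 73.4 and 59.0 CPM with RP22, against 0.743, 0.389 and 0.398 CPM at day 1 (3.17 ± 0.13 for AA147 with RP22, edgeR adjusted p 2.4e-06). CDKN1A, the inhibitor p21, had 647 ± 118 CPM with AA147 and 102 ± 7.15 CPM with RP22, against 16.5 ± 4.47 CPM at day 1 (SD, n = 3 each; 2.59 ± 0.13, edgeR adjusted p 7e-06). For both genes the 3 groups did not overlap, with AA147 highest and day 1 lowest. CDKN1C, the inhibitor p57, ran the other way with 13.4 ± 8.64 CPM with AA147 and 105 ± 34.3 CPM with RP22 (SD, n = 3 each; -3.04 ± 0.51), and CDKN1B, p27, was lower by less (-0.54 ± 0.091). CCNE1, cyclin E1, was lower as well (-1.29 ± 0.16).

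Among 23 subunits of DREAM, MYB-MuvB, E2F and NF-Y, 12 fell and 3 rose with AA147 against RP22. Of all genes tested 32.2% fell and 29.8% rose, so the share lower was above and the share higher below those of all genes. The 15 called in either direction are a share near the 62.0% of all genes. With library totals 21 fell and 1 rose, where 8527 of all 14293 genes tested fell and 1897 rose. E2F2 had the lowest value, -2.88 ± 0.36, and rests on 9, 13 and 5 reads in the AA147 libraries. It had 1.18, 1.79 and 0.630 CPM with AA147 and 6.63, 10.3 and 8.19 CPM with RP22. At day 1 it had 3.25, 2.62 and 2.78 CPM. E2F8 (-1.73 ± 0.38) was lower with AA147 too. LIN37, a MuvB subunit, was higher (0.82 ± 0.15; 0.37 with library totals), and MYBL1 was higher with TMM (0.97 ± 0.22) and not called with library totals (0.52, edgeR adjusted p 0.072).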
